A study of Mus musculus with 12 samples.

Results

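The genes of the proteasome were followed in bulk RNA sequencing of mouse islets, small groups of endocrine cells in the pancreas. Members were the gene symbols formed by Psma, Psmb, Psmc, Psmd, Psme or Psmf and a number, without Psmb8 and Psmb9, and 44 of the 24421 genes in the count data met this rule. Of these, 17 encode the core particle, 17 the regulatory particle, 3 its assembly chaperones and 5 the other activators and an inhibitor. The remaining pair is Psmc3ip, a meiotic recombination factor that shares only the symbol, and Psme2b, a single-exon copy of Psme2. The study compared 6 libraries from Il22ra1βKO mice (BKO), in which a receptor subunit for interleukin-22 was deleted in β cells, with 6 libraries from Ins2Cre mice (Cre), all on a high-fat diet for 6 weeks. Ins2Cre names a Cre recombinase driven from an insulin gene, and the controls carry it too by their label. The labels state neither age nor sex nor the design of the targeted allele. RNA came from whole islets, which also hold cells that the deletion does not target.

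The proteasome is the protease that takes apart proteins tagged with ubiquitin. Rings of alpha and beta subunits form a closed barrel, the core particle, whose cutting sites lie inside on Psmb5, Psmb6 and Psmb7. The regulatory particle sits on the barrel, binds the ubiquitin tag, removes it, unfolds the protein with a ring of ATPases and opens the gate formed by the alpha ring. Beta cells make very large amounts of proinsulin, and misfolded proinsulin is returned from the endoplasmic reticulum to the proteasome. The subunit genes are known to be raised together by the transcription factor Nfe2l1 when proteasome activity is short, and interferon raises a set of inducible members.

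The BKO libraries held 10356093 to 11902217 gene reads each and the Cre libraries 11444273 to 12397139. The islet hormones were abundant in all libraries, with Ins2 at 54446 to 93700 and Gcg at 8759 to 24214 CPM (read counts scaled to a common library total). The targeted gene Il22ra1 had 1 to 3 reads in BKO and 1 to 5 in Cre libraries, too few to check the labels. Markers of other cells differed between the groups: all 10 endothelial markers were above Cre in BKO (median 0.46 on the log2 fold change scale), with a summed level of 522 to 716 CPM against 406 to 574 CPM in Cre and none at 0. Of 10 β-cell markers 9 were lower, with a median of -0.20, a summed level of 97991 to 156260 CPM in BKO against 121158 to 152444 CPM in Cre and none at 0. Other endocrine (9 of 10 higher, median 0.35), stellate (9 of 10, 0.44), duct (5 of 8, 0.51) and acinar markers (7 of 7 tested, 0.55) were also mostly higher in BKO, and 8 of 9 tested macrophage markers were lower (-0.22). The part of these shifts in the proteasome values was not tested. In whole islets, fewer cells of a type and less RNA per cell cannot be told apart. Whether each library came from its own animal is not stated in the labels. The p-values therefore cover only the spread between these libraries, which may be technical.

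Proteasome transcripts differed little between the genotypes. No member passed the test in either direction (edgeR's quasi-likelihood test, Benjamini-Hochberg adjusted p over 13583 genes, threshold 0.05), with a background of 0% of all genes called higher and 0% called lower. At an unadjusted p under 0.05, 2 of 41 tested members were higher, Psmc3 and Psmd11, against 8.7% of all genes, and 0 were lower, against 4.66%. No member had groups that did not overlap, against 0.508% of all genes (0.331% with BKO above Cre and 0.177% below). DESeq2 called 169 genes higher (1.24%) and 54 lower (0.398%), none of them a member.

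Of the 42 genes with a role in the proteasome, 40 had enough reads to be tested. Their log2 fold changes, BKO against Cre, ran from -0.11 for Psmd2 to 0.11 for Psmd11, with a median size of 0.044 against 0.081 over all genes. Standard errors were also smaller, with a median of 0.054 against 0.089. The 95% interval of the fold change included 0 for 38 of the 40. It lay wholly within 0.25 on the log2 scale, a 1.19-fold difference in either direction, for 36 of them. The exceptions were Psma3 and Psme2, whose intervals reached 0.26 and 0.28, and the assembly chaperones Psmd9 and Psmd10, whose intervals reached -0.29 and -0.25. Together the members took 0.456% ± 0.015 (SD, n = 6) of gene reads in BKO and 0.451% ± 0.016 (SD, n = 6) in Cre.

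**Figure D1:**
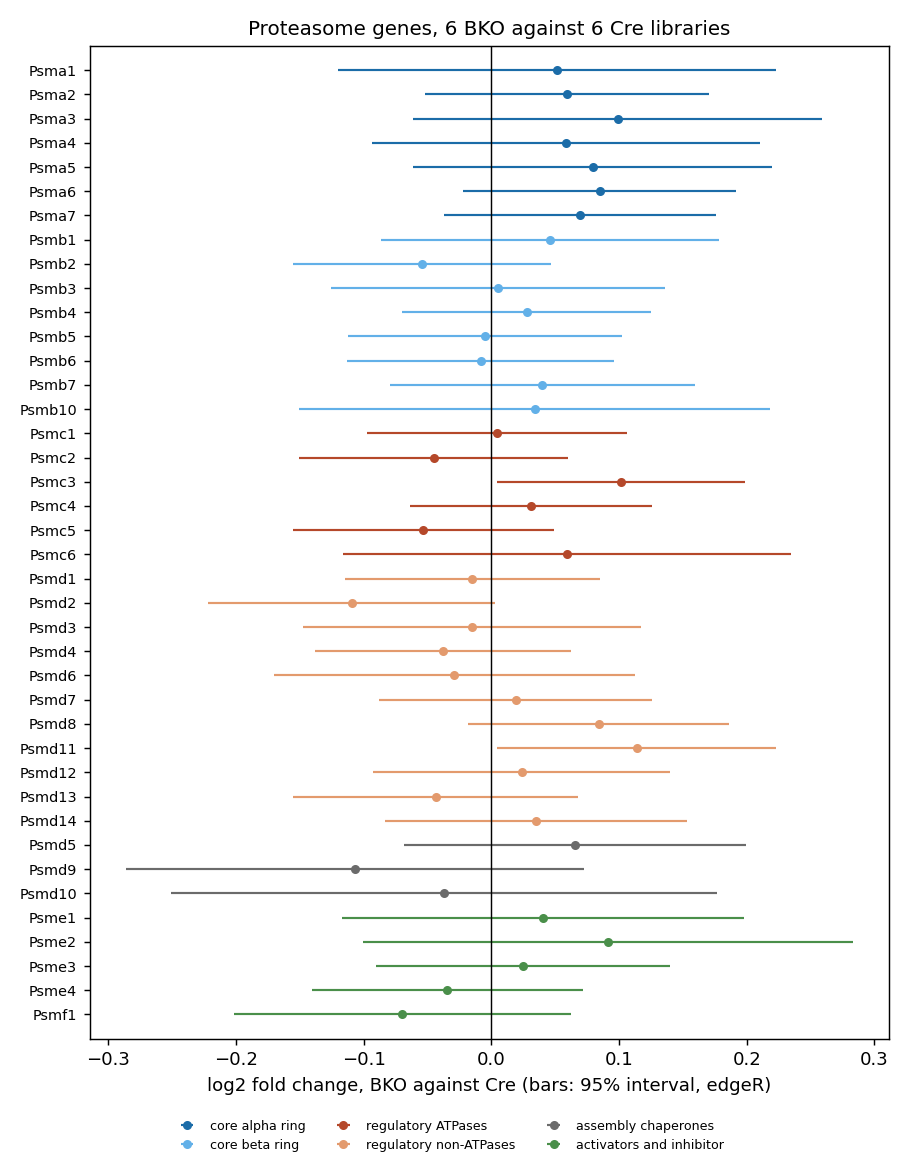
Log2 fold change of the 40 tested proteasome genes, 6 BKO against 6 Cre libraries, with bars for the 95% interval from edgeR and colours for the part of the particle. All points lie between -0.11 and 0.11, and only the bars of Psmc3 and Psmd11 leave out 0.

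In the main fit, fold changes of core members lay slightly above those of regulatory members, and with a surrogate variable the order of the medians turned. In the core, 12 of 15 tested members were higher in BKO and 3 lower, with a median log2 fold change of 0.046. In the regulatory particle 9 of 17 were higher and 8 lower, with a median of 0.0042. Over all genes 52.8% were higher, with a median of 0.0078. With RLE scaling, which shifts all genes slightly down, the counts became 11 of 15 and 8 of 17, and the regulatory median turned to -0.0056. With 1 surrogate variable in the fit the core median was 0.030 (10 of 15 higher) and the regulatory median 0.036 (12 of 17 higher). With the endothelial score as a covariate they were 0.067 (12 of 15) and 0.042 (12 of 17). The core median lay between 0.010, without Cre-6, and 0.067, without Cre-1, so single libraries moved it more than 1.5-fold. It also fell more than 1.5-fold without BKO-1 (0.018), BKO-3 (0.015), Cre-3 (0.023) or Cre-4 (0.029).

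The alpha ring, which forms the gate of the barrel, was the one member class with all tested members on the same side. All 7 of Psma1 to Psma7 had fold changes above 0, from 0.052 for Psma1 to 0.099 for Psma3, with a median of 0.069. Each of the 7 intervals included 0, and the smallest adjusted p was 0.511 (edgeR), for Psma6. The sign of all 7 was the same under RLE scaling, but 6 of 7 were higher without BKO-3 and 5 of 7 with a surrogate variable in the fit. The median lay between 0.040, without Cre-3, and 0.116, with a covariate for the endothelial score, and was 0.042 without Cre-6. These genes are measured in the same libraries, so their signs are not independent of each other.

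The spread of the alpha ring came from a few libraries in each group. Its mean log2 CPM was 6.98 in BKO-3, 6.93 in Cre-1 and 6.91 in BKO-1, while the other 9 libraries lay between 6.64 in Cre-6 and 6.79 in BKO-5. Group means were 6.82 ± 0.100 in BKO and 6.75 ± 0.101 in Cre (SD, n = 6 each), and the groups overlapped. BKO-3 was the highest library for 5 of the 7 alpha members and Cre-6 the lowest for 6 of them.

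The beta ring followed the same libraries with a smaller gap between groups. Its mean log2 CPM was highest in Cre-1 (6.79), then BKO-3 (6.75) and BKO-1 (6.71), and the other 9 libraries held 6.59 to 6.67. The group means were 6.67 ± 0.056 in BKO and 6.66 ± 0.072 in Cre (SD, n = 6). Of its 8 tested members 5 were higher and 3 lower, and with RLE scaling 4 were higher and 4 lower.

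The ATPases shared part of this order, and the non-ATPase subunits did not. The ATPase mean was 7.03 in BKO-3, 7.01 in Cre-1 and 6.999 in BKO-1, against 6.88 to 6.97 in the other libraries. Among the non-ATPase subunits, BKO-3 was again highest at 6.98, but BKO-1 was the lowest of all 12 libraries at 6.83 and Cre-1 stood among the others at 6.87. As a result the regulatory particle minus the core, on the mean log2 CPM scale, was smallest in Cre-1 (0.062), BKO-1 (0.086) and BKO-3 (0.144) and lay between 0.182 and 0.275 in the rest. It averaged 0.172 ± 0.049 in BKO and 0.205 ± 0.077 in Cre (SD, n = 6), a difference smaller than the spread within either group.

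**Figure D2:**
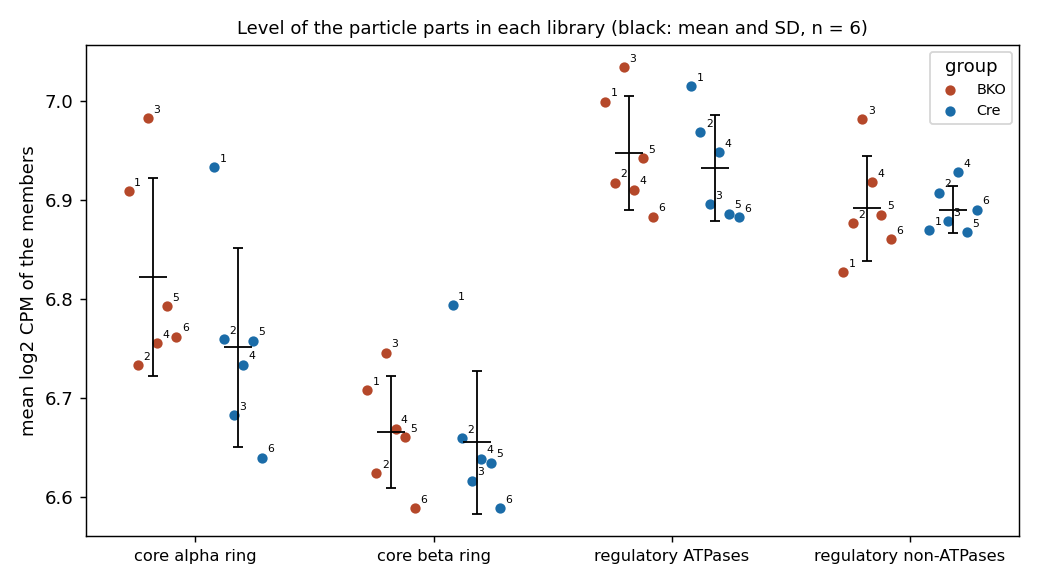
Mean log2 CPM of the members in each part of the particle, 1 point per library with its number, and black bars for the mean and SD of 6 libraries. BKO-3, BKO-1 and Cre-1 stand above the others in the alpha ring, beta ring and ATPases, and BKO-1 is the lowest library for the non-ATPase subunits.

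Other measures of the libraries set some of BKO-1, BKO-3 and Cre-1 apart, and 1 of them set all 3 apart from the rest. Reads aligned to more than 1 place made up 5.61% of all reads in Cre-1, 5.39% in BKO-1 and 5.36% in BKO-3. In the other libraries this share was 4.79% to 5.05%. All reads here means gene reads and those not counted to a gene. Ribosomal protein genes, which are short and highly expressed, had their highest mean log2 CPM in BKO-1 (7.97) and Cre-1 (7.88), against 7.61 to 7.83 in the other 10 libraries. Reads of low alignment quality made up 27.3% of all reads in Cre-1, but 17.4% in BKO-1 and 18.1% in BKO-3, and the next highest library was Cre-6 with 22.2%. The mean length of the gene that a read came from was lowest in BKO-1 (3357 bp) and BKO-3 (3393 bp), with Cre-4 (3409 bp) before Cre-1 (3445 bp), and highest in Cre-3 (3555 bp). Core genes had a median transcript length of 1165 bp and regulatory genes of 1636 bp. The part of transcript length, alignment quality and reads aligned to more than 1 place in the core values was not tested.

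Over all genes, the median log2 fold change was 0.012 for transcripts under 1500 bp and 0.0062 for those of 3000 bp or more. These medians compare BKO with Cre, and the libraries BKO-1, BKO-3 and Cre-1 set apart above lie in both groups. Among members the median was 0.031 for the 19 under 1500 bp, 0.025 for the 17 between and -0.025 for the 4 longest.

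The 3 constitutive catalytic subunits had nearly equal levels in both genotypes. Psmb5, the chymotrypsin-like subunit, was at 50.5, 53.7 and 58.2 CPM (lowest, median and highest) in BKO and at 53.5, 53.9 and 56.2 CPM in Cre. Its log2 fold change was -0.0049 ± 0.051 (SE; adjusted p = 0.985, edgeR), and the BKO range enclosed the Cre range. Psmb6, the caspase-like subunit, was at 134, 142 and 155 CPM in BKO and 138, 143 and 151 CPM in Cre, giving a log2 fold change of -0.0082 ± 0.050 (SE; adjusted p = 0.972, edgeR). Psmb7, the trypsin-like subunit, was at 108, 116 and 126 CPM in BKO and 104, 110 and 126 CPM in Cre, with 0.040 ± 0.057 (SE; adjusted p = 0.838, edgeR). The 95% intervals of the 3 ran from -0.11 at the lowest to 0.16 at the highest. Exons of Psmb7 overlap those of Nek6 on the opposite strand by 405 bp, and Psmb5 has a pseudogene, Gm3375, with 98.9% identity over 796 bp, so their counts may hold or lack reads of these genes.

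Promoters were looked at because proteasome genes are known to be induced together through shared promoter elements. RefSeq windows (GRCm38.p6) of 300 bases, 250 before to 50 after the start, were found for 37 of the 44 members. A member was counted once if any of its windows held the letters searched (40 windows for the 37 genes), while shares of all promoters count each window. The letters TGACNNNGC, the core of the antioxidant response element to which Nfe2l1 binds, were searched on both strands and occurred in 6 of the 37 genes (16.2%) and in 12.4% of 32851 mouse promoters. Among the 6 were Psmb5 and Psmb6, whose windows are printed 5′ to 3′ on the gene's strand with these letters in capitals, 47 and 9 bases before the start; they lie at chr14:54617946-54618245 (minus strand) and chr11:70525107-70525406 (plus strand).
Psmb5: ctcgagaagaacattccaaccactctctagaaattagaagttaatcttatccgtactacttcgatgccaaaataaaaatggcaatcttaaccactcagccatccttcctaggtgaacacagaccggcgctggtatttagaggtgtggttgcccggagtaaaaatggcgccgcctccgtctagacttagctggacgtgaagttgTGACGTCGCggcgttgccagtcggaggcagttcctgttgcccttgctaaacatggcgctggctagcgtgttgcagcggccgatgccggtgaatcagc
Psmb6: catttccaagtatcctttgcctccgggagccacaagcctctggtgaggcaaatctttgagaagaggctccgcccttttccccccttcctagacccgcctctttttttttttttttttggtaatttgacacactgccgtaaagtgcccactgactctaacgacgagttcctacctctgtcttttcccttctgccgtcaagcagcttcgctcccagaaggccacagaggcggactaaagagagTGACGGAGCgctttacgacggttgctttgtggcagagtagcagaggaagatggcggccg

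The other windows with these letters belong to Psmc6, Psmd9, Psmd12 and Psme4. The 6 had a median log2 fold change of -0.0065, with 2 higher in BKO, and the 28 tested members with a window that lacks these letters had a median of 0.032, with 19 higher. A match of letters is a description of the window and not a bound site.

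The binding letters of ETS factors, CCGGAAG on either strand, split the particle differently. They occurred in 9 of the 14 regulatory genes with a window and in 1 of the 13 core genes, Psma6 (in only 1 of its windows), against 8.86% of all promoter windows. They do not overlap the antioxidant element in their letters. CCAAT, searched in the same way, occurred in 4 regulatory and 7 core genes and in 37.4% of all promoters. The members with ETS letters had a median log2 fold change of -0.012 with 6 of 12 higher, and those with a window but without them 0.034 with 15 of 22 higher. The members at both ends of the fold change range, Psmd11 (chr11:80428365-80428664) and Psmd2 (chr16:20651402-20651701), both on the plus strand, carry the letters 11 and 26 bases before the start, in capitals here and read as CTTCCGG on the gene's strand.
Psmd11: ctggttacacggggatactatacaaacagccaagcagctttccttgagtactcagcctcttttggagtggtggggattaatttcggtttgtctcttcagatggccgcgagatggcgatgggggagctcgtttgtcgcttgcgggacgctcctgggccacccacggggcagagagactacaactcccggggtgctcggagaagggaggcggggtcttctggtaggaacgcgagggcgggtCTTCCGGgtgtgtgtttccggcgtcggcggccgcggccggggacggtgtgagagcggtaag
Psmd2: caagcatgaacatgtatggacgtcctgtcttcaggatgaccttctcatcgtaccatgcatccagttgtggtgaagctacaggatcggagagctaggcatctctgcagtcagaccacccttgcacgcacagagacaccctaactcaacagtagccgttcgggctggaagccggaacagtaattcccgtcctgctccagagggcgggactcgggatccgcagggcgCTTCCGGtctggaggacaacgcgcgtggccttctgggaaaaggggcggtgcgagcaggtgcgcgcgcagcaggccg

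Among the ATPases, Psmc3 had the smallest p of all members. The gene is at chr2:91054009-91066369 (mm10, plus strand), a protein-coding gene. Its level was 114, 123 and 129 CPM (lowest, median and highest) in BKO and 112, 113 and 119 CPM in Cre. Of the BKO libraries 5 of 6 were above the Cre mean, and BKO-4 and BKO-6 lay within the Cre range. The log2 fold change was 0.10 ± 0.046 (SE; 1.07-fold, 95% interval 1.003 to 1.15), with an unadjusted p of 0.041 and an adjusted p of 0.353 (edgeR). Its exons overlap those of Slc39a13 on the opposite strand by 215 bp, and without a stated strand setting reads of the pair cannot be told apart there. Of the other ATPases, 3 had fold changes above 0 and Psmc2 and Psmc5 below it, from -0.053 to 0.059.

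Psmd11, a scaffold subunit of the lid that helps hold the particle together, gave the largest fold change among the proteasome genes. The gene is at chr11:80428615-80473248 (plus strand). The level was 77.8, 86.5 and 93.9 CPM in BKO and 75.8, 78.6 and 85.6 CPM in Cre. Of the BKO libraries 4 were above the highest Cre library, and BKO-1 and BKO-2 lay within the Cre range. The log2 fold change was 0.11 ± 0.052 (SE; 1.08-fold, 95% interval 1.003 to 1.17), with an unadjusted p of 0.042 and an adjusted p of 0.354 (edgeR). Copies with near-identical sequence exist (A730017L22Rik, 97.9% over 1501 bp, and Gm14048, 98.0% over 1269 bp), so its count is uncertain.

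Psmd2, the large scaffold of the base that receives ubiquitin shuttle proteins, lay at the other end. The gene is at chr16:20651652-20663414 (plus strand). Its level was 268, 299.8 and 319 CPM in BKO and 293, 323 and 336 CPM in Cre. All 6 BKO libraries were below the Cre mean, BKO-1, BKO-2 and BKO-5 were below the lowest Cre library, and the other 3 lay within the Cre range. The log2 fold change was -0.11 ± 0.053 (SE; 0.927-fold, 95% interval 0.858 to 1.002), with an unadjusted p of 0.056 and an adjusted p of 0.391 (edgeR). It has a transcribed pseudogene, Gm5422, with 96.4% identity over 2726 bp.

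The subunits that read and remove the ubiquitin tag did not differ beyond their errors. Psmd4, a ubiquitin receptor, was at 118, 121 and 133 CPM in BKO and 120, 129 and 131 CPM in Cre, giving a log2 fold change of -0.038 ± 0.048 (SE; adjusted p = 0.805, edgeR). Psmd14, the deubiquitinase of the lid, was at 64.4, 66.4 and 76.4 CPM in BKO and 64.2, 65.8 and 72.2 CPM in Cre, with 0.035 ± 0.056 (SE; adjusted p = 0.858, edgeR). For both, the groups overlapped over most of their range. The remaining non-ATPase subunits, Psmd1, Psmd3, Psmd6, Psmd7, Psmd8, Psmd12 and Psmd13, had fold changes from -0.044 to 0.084. Of the assembly chaperones, which place the ATPases and then leave, Psmd5 stood at 0.065 and Psmd9 and Psmd10 at -0.11 and -0.037, none past the test.

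The activators that can take the place of the regulatory particle, and the inhibitor, were also close to equal. Psme3, the nuclear activator, was at 92.2, 100.3 and 109.7 CPM in BKO and 91.8, 101 and 103 CPM in Cre, giving a log2 fold change of 0.025 ± 0.055 (SE; adjusted p = 0.905, edgeR). Psme4, a large single-chain activator, was at 167, 180.1 and 203 CPM in BKO and 179, 185 and 192 CPM in Cre, with -0.035 ± 0.050 (SE; adjusted p = 0.841, edgeR). Psmf1, which inhibits the core particle in the test tube, was at 48.8, 53.3 and 56.7 CPM in BKO and 50.05, 55.2 and 61.6 CPM in Cre, with -0.070 ± 0.063 (SE; adjusted p = 0.698, edgeR). In each of the 3 the group ranges overlapped.

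Interferon-inducible members varied more between libraries than between genotypes. Psmb10, which replaces Psmb7 in the immunoproteasome, was at 57.9, 69.3 and 75.1 CPM in BKO and 59.5, 63.6 and 84.2 CPM in Cre, giving a log2 fold change of 0.034 ± 0.087 (SE; adjusted p = 0.925, edgeR). Psme1, a subunit of the inducible activator ring, was at 99.1, 116 and 128 CPM in BKO and 102, 104 and 136 CPM in Cre, with 0.040 ± 0.075 (SE; adjusted p = 0.880, edgeR). Its partner Psme2 was at 120.0, 141 and 160.3 CPM in BKO and 116, 130.3 and 168 CPM in Cre, with 0.091 ± 0.090 (SE; adjusted p = 0.734, edgeR). All 3 were highest in Cre-1, a control library.

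The 4 libraries highest in Psmb10 and Psme1 were also highest in 11 interferon response genes that are not proteasome genes (Isg15, Ifit1 and others). The mean log2 CPM of these 11 was highest in Cre-1 (6.69), BKO-2 (6.66), BKO-5 (6.60) and BKO-1 (6.31). Cre-3 came next at 6.29, so the cut at 4 libraries falls where the score has little gap, and no other cut was looked at. For Psme2, 3 of the 4 were among its top 4, with BKO-3 (interferon score 5.98) in place of BKO-2. Of the 40 tested members, Psmb10 and Psme1 were the 2 that shared all 4. Of the others, 9 shared 3, 16 shared 2, 8 shared 1 and 5 shared none. Psme2 was 1 of these 9, and the alpha subunit Psma1 had the same 4 highest libraries as Psme2. Cre-1 and BKO-1 were also high in the alpha ring, beta ring and ATPases. The interferon genes themselves summed to 753 to 1251 CPM in BKO and 718 to 1301 CPM in Cre, and 9 of 11 were higher in BKO (median 0.093 on the log2 scale); none was at 0 in all libraries. Per length, Psmb10 was 0.521 ± 0.076 of Psmb7 in BKO and 0.519 ± 0.037 in Cre (SD, n = 6), between 0.445 in BKO-6 and 0.612 in BKO-2. The ratio of Psme1 to Psme2 per length was steadier, 0.696 ± 0.052 in BKO and 0.721 ± 0.034 in Cre (SD, n = 6).

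**Figure D3:**
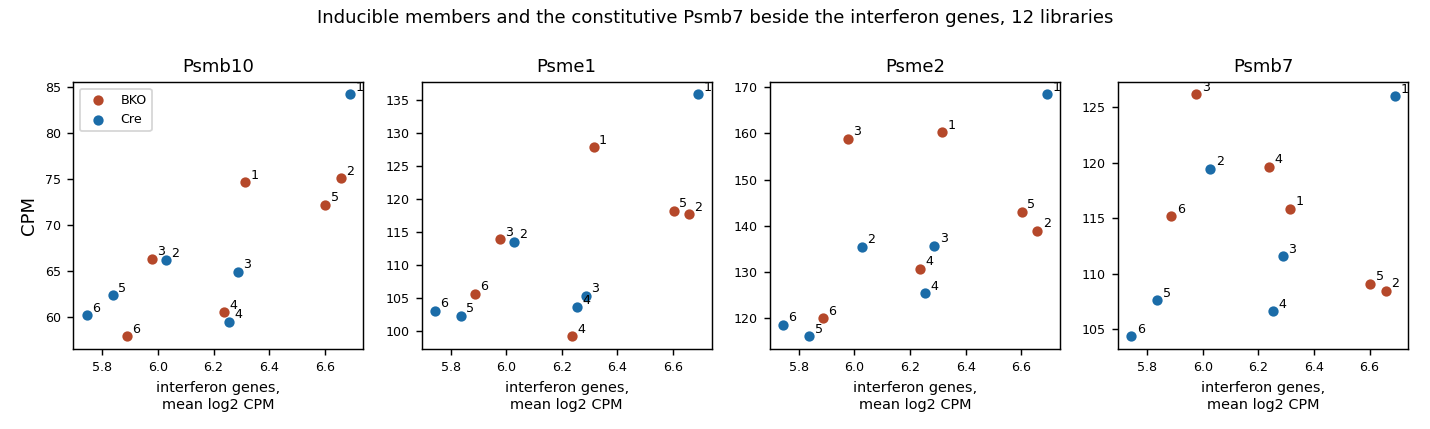
CPM of Psmb10, Psme1, Psme2 and the constitutive Psmb7 in each library (numbered points) against the mean log2 CPM of 11 interferon response genes. The 4 libraries with the highest interferon score (Cre-1, BKO-2, BKO-5 and BKO-1) are the top 4 for Psmb10 and Psme1, and for Psmb7 the highest library is BKO-3.

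Levels per transcript length (CPM divided by transcript length in kilobases, mean of 12 libraries) differed far more between members than between genotypes. In the core they ran from 181 for Psmb6, 165 for Psma7 and 153 for Psmb4 down to 48.1 for Psma3, with a median of 90.4. Psmb7 stood at 98.4 and Psmb5 at 60.3. In the regulatory particle they ran from 104 for Psmd2 and Psmc1, which did not differ beyond the spread of the libraries, down to 29.1 for Psmd11, with a median of 67.5. Psme2 at 143 and Psme1 at 101 were at core levels, while Psme3, Psme4 and Psmf1 stood at 37.6, 28.2 and 14.3. The assembly chaperones were lowest, at 11.5 for Psmd10, 10.8 for Psmd5 and 9.79 for Psmd9.

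Psma3, at the low end of the core, was at 122, 140.02 and 163 CPM in BKO and 116, 132 and 158 CPM in Cre, and its log2 fold change was 0.099 ± 0.076 (SE; adjusted p = 0.636, edgeR). The order depends on the length taken for each gene. With the union of all annotated exons in place of the principal transcript, a choice made after the data were seen, Psmb4 and Psmb1 were the ends of the core and Psmc1 and Psmd11 those of the regulatory particle.

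**Figure D4:**
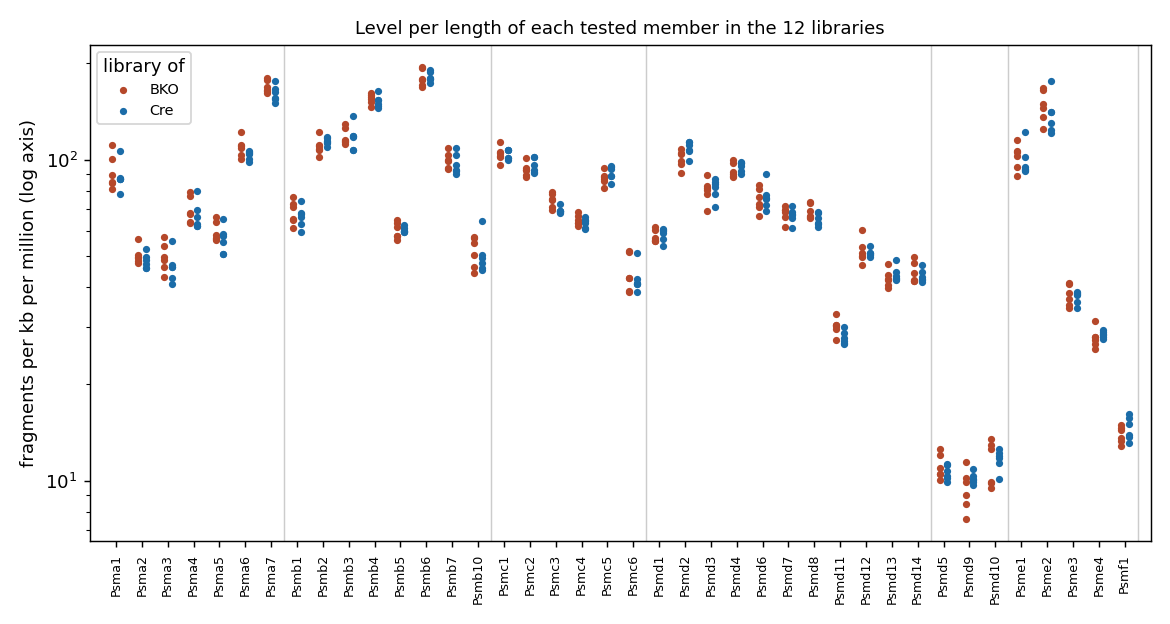
Level per kilobase of the principal transcript for each of the 40 tested members in 6 BKO and 6 Cre libraries, on a log axis, with grey lines between the parts of the particle. The levels run from 9.79 for Psmd9 to 181 for Psmb6 as means of 12 libraries, and the points of the groups overlap for each member.

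The tissue-restricted core subunits were at or near 0. Psmb11, the beta subunit of the thymus, had 0 reads in all 12 libraries, which allows up to 0.0217 CPM over all libraries together (3 reads; counting error only). Psma8, the alpha subunit of the testis, had 24 reads in all, 9 of them in Cre-1. Psme2b had 68 reads in all and is 99.4% identical to Psme2 over 794 bp, so its reads cannot be assigned with certainty. Psmc3ip, tested but not a subunit, had 293 reads in all and a log2 fold change of 0.19 ± 0.24 (SE; adjusted p = 0.807, edgeR).

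Other genes of the pathway also differed little between genotypes, with a median size of log2 fold change of 0.040 against 0.044 for the 40 proteasome genes. Their standard errors were larger, with a median of 0.067 against 0.054. The highest interval bound was 0.37, for Psmg4, against 0.28 for Psme2. Of 33 listed, 32 were found and tested, none passed the test, and 18 were higher and 14 lower, with a median log2 fold change of 0.0033; with RLE scaling the split turned to 14 higher and 18 lower. Nfe2l1, the factor that controls the subunit genes, was at 496, 613 and 688 CPM in BKO and 558, 650.4 and 694 CPM in Cre, giving a log2 fold change of -0.084 ± 0.074 (SE; adjusted p = 0.695, edgeR). Adrm1, a ubiquitin receptor of the regulatory particle, had 0.039 ± 0.067 (SE; adjusted p = 0.867, edgeR), and Pomp, which matures the core particle, had 0.047 ± 0.076 (SE; adjusted p = 0.858, edgeR). The unfoldase Vcp and its partner Nploc4, which hand proteins from the endoplasmic reticulum to the proteasome, both had -0.10 (adjusted p = 0.411 and 0.530, edgeR). Ufd1, the other gene listed with them, had -5.1e-05 ± 0.054 (SE). Vcp and Nploc4 were chosen for naming after their values were seen.

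Zfand5, a zinc finger protein known to bind and stimulate the proteasome, was the 1 of 32 pathway genes with an unadjusted p under 0.05, against 8.7% of all genes higher and 4.66% lower at this p. The gene is at chr19:21272278-21286840 (plus strand). Its level was 77.1, 88.2 and 91.0 CPM in BKO and 74.3, 76.9 and 79.2 CPM in Cre. All 6 BKO libraries were above the Cre mean, and only BKO-5 lay within the Cre range. The log2 fold change was 0.17 ± 0.050 (SE), with an unadjusted p of 0.0038 and an adjusted p of 0.179 (edgeR), so it did not pass the threshold over all genes.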

How the data were processed

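Total RNA of 12 islet samples was extracted with TRIzol, prepared with a VAHTS Universal V6 kit and sequenced as paired ends on a NovaSeq sequencer, per the labels' protocols. HISAT2 2.0.5, HTSeq and the mm10 build are named in the submitters' processing notes; which gene annotation and strand option were used is not stated there. The authors deposited, for each sample, whole-number read counts for 24421 gene symbols followed by 5 summary lines, which entered neither library sizes nor tests. The table of the whole series was not used.

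Groups follow the titles. Differences were tested with edgeR 4.0.16 (R 4.3.3; filterByExpr, TMM, robust quasi-likelihood) in one fit of 13583 genes without covariates, checked on simulated data, with Benjamini-Hochberg adjustment at 0.05. CPM values use TMM-scaled library sizes, and intervals are 95% intervals of the fit. A floor of 3 reads was 0.242 to 0.290 CPM per library. Counts of replicate libraries differed by more than sampling noise (chi-square over degrees of freedom 5.07 to 30.2). Lengths, coordinates, overlaps and copies (at least 95% identity over 150 bp of transcript) come from GENCODE M21, promoters from RefSeq, both GRCm38. Older symbols were used for Sem1 (Shfm1), Ecpas (AI314180) and Ufd1 (Ufd1l).

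Genes named in full were the catalytic, inducible, ubiquitin-handling, activator and inhibitor genes, members and pathway genes with an unadjusted p under 0.05, the extremes of level per length, and Nfe2l1, Adrm1 and Pomp; Psmd2 and Psma3 are among the extremes. The members, classes and lists were chosen with earlier results of these data known. Alternatives were other scalings (RLE, upper quartile), count filters, DESeq2 1.42.0, limma-voom 3.58.1, no robust shrinkage, a replicate block, a surrogate variable (sva 3.50.0), the endothelial score, other class definitions and each library left out.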

Additional observations from a re-analysis of the deposited data

Results flagged for a closer look

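Dixon's 95% limit for the gap over the range was applied to 58 groups of 6 libraries. In 6 of these groups, 1 library stood apart from the rest by more than this limit. Chance alone gives about 1 in 20 for independent groups. These groups share libraries and genes, so the count cannot be compared with that rate. Cre-1 was far above the other Cre libraries in Psmb10 (84.2 CPM, the next 66.2), in Psme1 (136 CPM, the next 113) and in the mean log2 CPM of the beta ring (6.79, the next 6.66). Cre-1 also had the highest interferon score and the largest share of reads of low alignment quality, 27.3%; their part in these values was not tested. Cre-2 stood apart in Psmc3 (119 CPM, the next 113), and without it the log2 fold change of that gene was 0.11. BKO-3 stood apart in the mean log2 CPM of the regulatory particle (7.0, the next 6.92), and BKO-5 in Adrm1 (113 CPM, the next 96.5), whose log2 fold change was -0.028 without that library.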

How the results depend on the processing

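No member was called under any of the 22 alternatives; the smallest adjusted p of a member ran from 0.171, without Cre-1, for Psmd2, to 1.0 with a surrogate variable, also where all genes gave calls (DESeq2, the replicate block with 292 higher (2.15%) and 72 lower (0.53%), without BKO-4 with 135 and 127, without Cre-5 with 105 and 5, without BKO-3 with 5 and 0, without Cre-1 with 1 and 5). Members at an unadjusted p under 0.05, 2 higher and 0 lower, became 0 and 1 with RLE scaling or no count filter, 1 and 1 with at least 10 reads in every library, DESeq2 or the replicate block, 1 and 0 with limma-voom and 0 and 0 with the endothelial score; leaving out 1 library gave 0 to 1 higher and 0 to 2 lower. At this p, all genes gave 7.9% higher and 5.39% lower with RLE scaling and 6.5% and 4.39% without a count filter. The shares were 7.74% and 5.3% with at least 10 reads, 8.09% and 5.65% with DESeq2 and 10.1% and 6.15% with the replicate block. With limma-voom they were 9.78% and 6.1%, and with the endothelial score 1.76% and 1.44%. With the surrogate variable they were 1.11% and 0.964%, and the members higher there were Psmd11 and Psma6. Leaving out 1 library gave 5.54% to 9.14% higher and 3.74% to 8.63% lower. The cause was not tested. The genes concerned were Psmc3, Psmd11, Psmd2, Psmd9 and, with the surrogate variable, Psma6. Leaving out 1 library gave core medians of 0.010 to 0.067, regulatory medians of -0.022 to 0.011 and differences (regulatory minus core) of -0.063 to -0.013. With the surrogate variable the difference was 0.0067, the only sign change among its alternatives, with medians of 0.030 and 0.036; with the endothelial score it was -0.025. The labels do not say that replicate numbers mark pairs, and the data leave this undecided: correlations of same-numbered deviations were 0.23, -0.079, -0.058, 0.25, 0.20 and 0.28, and 3 of 6 numbers matched each other best.

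Signs turned with the surrogate variable for Psmb6 (0.039), Psmb10 (-0.19), Psme1 (-0.11), Psme3 (-0.028), Psme4 (0.047), Psmf1 (0.045) and Adrm1 (-0.066), and with the endothelial score for Psmb6 (0.10), Psmb10 (-0.064), Psme3 (-0.067), Psme4 (0.033) and Adrm1 (-0.14). Leaving out 1 library gave -0.028 to 0.068 for Adrm1, -0.00083 to 0.069 for Pomp, -0.012 to 0.097 for Psmb10, -0.043 to 0.0077 for Psmb5, -0.0017 to 0.050 for Psmd14, -0.0030 to 0.090 for Psme1 and -0.016 to 0.045 for Psme3. With the union of exons as length, levels were 77.0 for Psmb6, 35.2 for Psma3, 76.5 for Psmd2 and 13.0 for Psmd11.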
